A study of Homo sapiens with 6 samples.

Results

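The actin cytoskeleton genes and targets of the transcription factor SRF described here are 42 genes that encode or control actin filaments. They were chosen by name from a table of 63241 genes measured in PANC-1 cells. They cover both cytoplasmic actins, the ARP2/3 complex, filament turnover and capping proteins, tropomyosins, non-muscle myosin II, adhesion linkers, transgelins and calponins, and the regulators SRF, MRTFA, DIAPH1 and DIAPH3. Of the 42, 41 had enough counts to be tested, and the exception was CNN1. PANC-1 is an established human pancreatic carcinoma line, labelled wild type. RNA was taken from 3 libraries of cells given 20 µM Schisandrin B, a lignan of Schisandra fruit, and from 3 libraries of cells given a vehicle of less than 0.1% DMSO, all after 24 h. All cells were grown in the same medium with fetal bovine serum, at 1 dose and 1 time. The series title names proliferation and ferroptosis as its subject, and the labels state no aim for the cytoskeleton.

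Actin monomers assemble into filaments that give a cell its shape, carry contractile force and link to adhesions. Profilin feeds monomers to growing ends, the ARP2/3 complex starts branches, formins start straight filaments, cofilins sever them and capping protein stops their growth. Tropomyosins coat filaments and myosin II pulls on them. Actin monomers also hold the coactivator MRTFA outside the nucleus. When monomers are used up, MRTFA joins SRF, a transcription factor that binds a short element called the CArG box in many actin and adhesion genes. A second class of SRF cofactors, the ternary complex factors (TCF) such as ELK1, drives immediate early genes instead.

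Because SRF is the common factor of many of these genes, the stretches of promoter that hold a CArG box are shown. The element is CC, then 6 bases of A or T, then GG, and the pattern covers both strands at once. It was looked for in RefSeq windows (GRCh38.p14) from 250 bases before to 50 after each gene start. ACTB, TAGLN, ARPC1B and MYL9 were not matched in the RefSeq table. Of the 38 members matched, 6 held at least 1 box, which is 15.8%, against 1.6% of all 27305 genes with a window (438 genes). The members were gathered in part as SRF targets, so the higher share cannot be read apart from that choice. By window, the shares were 9.84% of 61 for members and 1.29% of 35116 for all. Capitals mark the CArG boxes, written 5′ to 3′ on the gene's strand. EGR1, a TCF-type target outside the members and chosen after its values were seen, is shown for comparison.
SRF: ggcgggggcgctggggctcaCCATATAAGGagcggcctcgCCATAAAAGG
ACTG1: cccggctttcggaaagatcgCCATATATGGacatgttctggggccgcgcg
ACTN1: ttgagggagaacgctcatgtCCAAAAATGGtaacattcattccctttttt
FLNA: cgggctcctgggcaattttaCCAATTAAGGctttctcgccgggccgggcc
CNN2: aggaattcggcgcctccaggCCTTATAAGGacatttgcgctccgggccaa
TPM4: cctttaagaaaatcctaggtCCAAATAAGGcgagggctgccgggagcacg
EGR1: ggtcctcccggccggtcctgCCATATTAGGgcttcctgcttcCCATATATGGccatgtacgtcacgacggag

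These stretches lie at chr6:43171219-43171268 on the plus strand for SRF, chr17:81512864-81512913 on the minus strand for ACTG1 and chr14:68977708-68977757 on the minus strand for ACTN1. FLNA's is at chrX:154374699-154374748 on the minus strand, CNN2's at chr19:1026499-1026548, TPM4's at chr19:16067345-16067394 and EGR1's at chr5:138465354-138465425, the last 3 on the plus strand. The boxes of ACTG1 and FLNA begin at position -94 from the RefSeq start, that of CNN2 at -89, and those of ACTN1 and TPM4 at -171 and -173. SRF, which has a CArG box in its own promoter, has 2 boxes, at -30 and -10, and EGR1 has 2, at -105 and -83. A match describes the letters only and does not show that SRF binds there.

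Library totals ran from 13667700 to 16045095 counts in Schisandrin B and from 13656826 to 18289410 in vehicle. Libraries correlated at r of 0.99 to 0.992 within groups and 0.93 to 0.937 between groups, across genes, which are not independent replicates. The labels do not say that replicates are separate cultures, so p-values measure the spread between these libraries, which may be technical. As for the labelled cell type, the epithelial keratins KRT8 and KRT18 were abundant, at 275 ± 2.19 and 312 ± 3.61 CPM (counts scaled to library size with TMM) in Schisandrin B and 734 ± 24.7 and 512 ± 28.2 CPM in vehicle (SD, n = 3 each). CLDN4 and MUC1, also epithelial markers, were higher in Schisandrin B, at 220 ± 17.4 and 9.02 ± 0.858 CPM, against 162 ± 5.02 and 6.05 ± 0.621 CPM in vehicle. The ductal and epithelial markers KRT7, EPCAM and CDH1 had too few counts to be tested. The 8 ductal and epithelial markers summed to 858 to 882 CPM in Schisandrin B and 1472 to 1587 CPM in vehicle. Markers of smooth muscle and myofibroblasts summed to 13.5 to 17.3 CPM in Schisandrin B and 15.6 to 16.2 CPM in vehicle, with the defining genes MYOCD and ACTG2 at 0 counts in all libraries. Fibroblast markers summed to 44.1 to 45.9 CPM in Schisandrin B and 215 to 231 CPM in vehicle, nearly all of it COL1A2. Endothelial markers, mostly CDH5, summed to 1.32 to 1.94 CPM in Schisandrin B and 13.4 to 13.7 CPM in vehicle. Blood markers, mostly CD68, summed to 50.9 to 57.9 CPM in Schisandrin B and 24.6 to 27.5 CPM in vehicle. The part of these shifts in the results was not tested.

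Actin cytoskeleton transcripts were lower after Schisandrin B across nearly every role. In edgeR's quasi-likelihood test, with p adjusted over the 15773 genes tested (threshold 0.05), 36 of the 41 tested members fell, 2 rose (TAGLN and FLNC) and 3 passed in neither direction (TPM1, MYL12A and ZYX). Of all genes tested, 70.2% passed in either direction. The 36 make up 87.8% of the tested members, against 35.2% of all genes tested that fell, and the 2 make up 4.88%, against 35% that rose. Among abundant protein-coding genes, with a mean of at least 100 CPM, 55.7% of 2118 fell and 32.5% rose. The median log2 fold change of the members was -0.55, against 0.0004 for all genes tested and -0.21 for those abundant protein-coding genes. For 38 of the 41 the values of the groups did not overlap, against 73.5% of all genes tested. Among the 2118 abundant protein-coding genes the groups did not overlap for 1899, a share near that of the members. Together the 42 genes took 1.28 ± 0.0399% of all counts in Schisandrin B and 2.24 ± 0.0404% in vehicle (SD, n = 3 each). Fewer cells of a type and less RNA per cell cannot be told apart in these bulk libraries, and all changes are relative to the other genes.

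**Figure D1:**
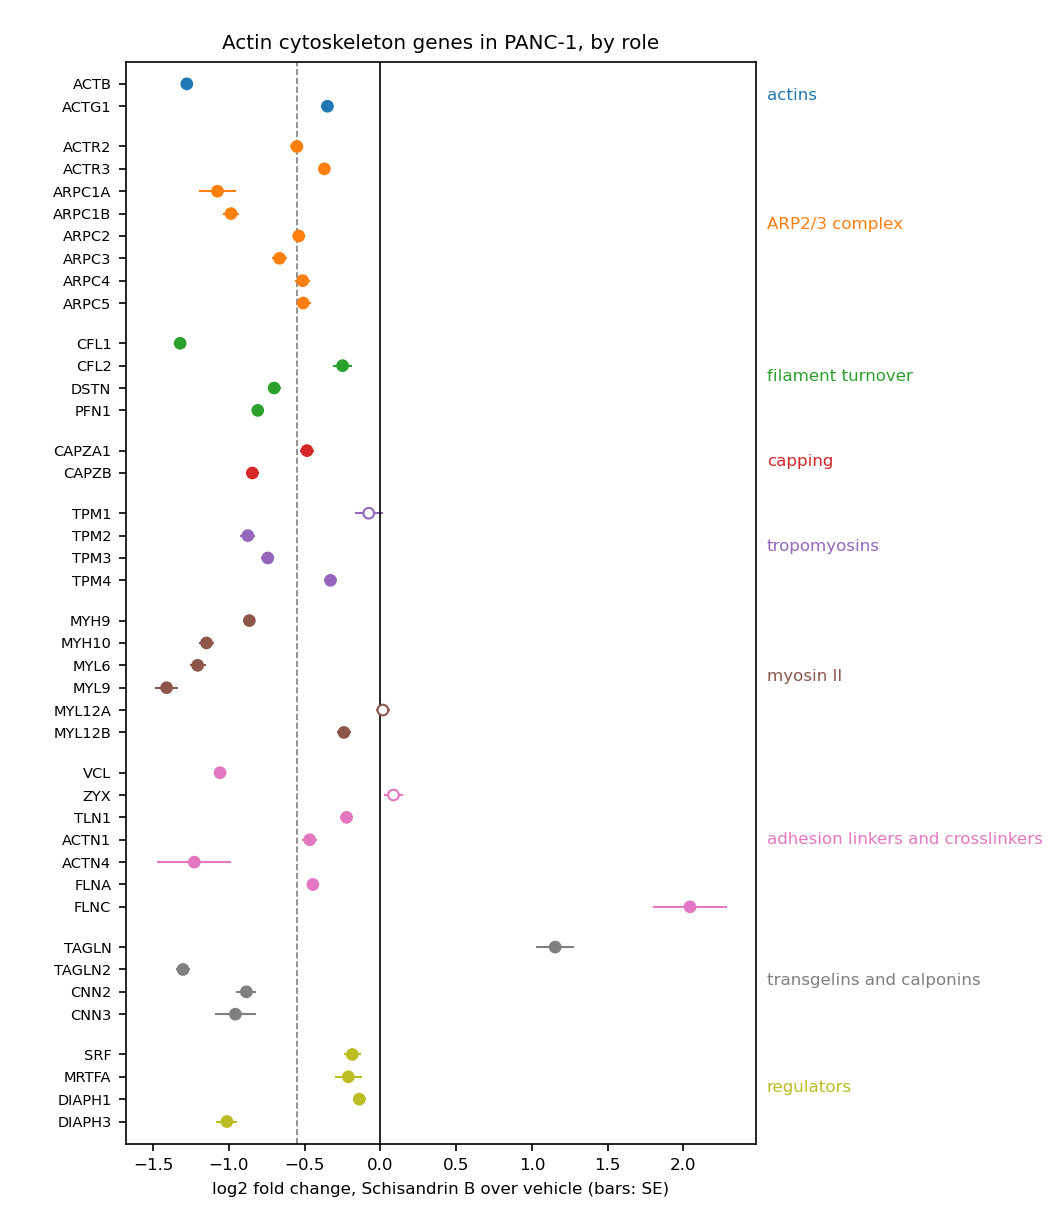
Log2 fold change (x axis, Schisandrin B over vehicle, bars SE) of the 41 tested members, grouped by role on the y axis; filled points passed an adjusted p of 0.05 and open points did not. The dashed line is the members' median of -0.55, and the points run from MYL9 at -1.41 to FLNC at 2.04.

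The actins fell unequally. ACTB, cytoplasmic beta-actin (ENSG00000075624, chromosome 7, 5526409 to 5563902 on GRCh38), had 3455, 3302 and 3360 CPM in the Schisandrin B libraries, against 7873, 8467 and 8197 CPM in the vehicle libraries. Every Schisandrin B library was far below every vehicle library. The log2 change was -1.28 (SE 0.04, adjusted p = 2.34e-14 in edgeR's test), a 2.43-fold fall. ACTG1, cytoplasmic gamma-actin (ENSG00000184009, chromosome 17, 81509413 to 81523847), had 1883, 1730 and 1860 CPM in Schisandrin B, against 2310, 2369 and 2295 CPM in vehicle. Its groups did not overlap either, but the fall was 1.27-fold (log2 change -0.35, SE 0.04, adjusted p = 5.54e-07 in edgeR's test). ACTB supplied 64.7%, 65.6% and 64.4% of actin counts in Schisandrin B and 77.3%, 78.1% and 78.1% in vehicle. ACTB and ACTG1 encode near-identical proteins and have many processed pseudogenes, so reads may be shared. The 12 ACTB and 21 ACTG1 pseudogenes in the table held 0.0645% and 0.123% of their parent's counts in Schisandrin B and 0.0641% and 0.0762% in vehicle.

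**Figure D2:**
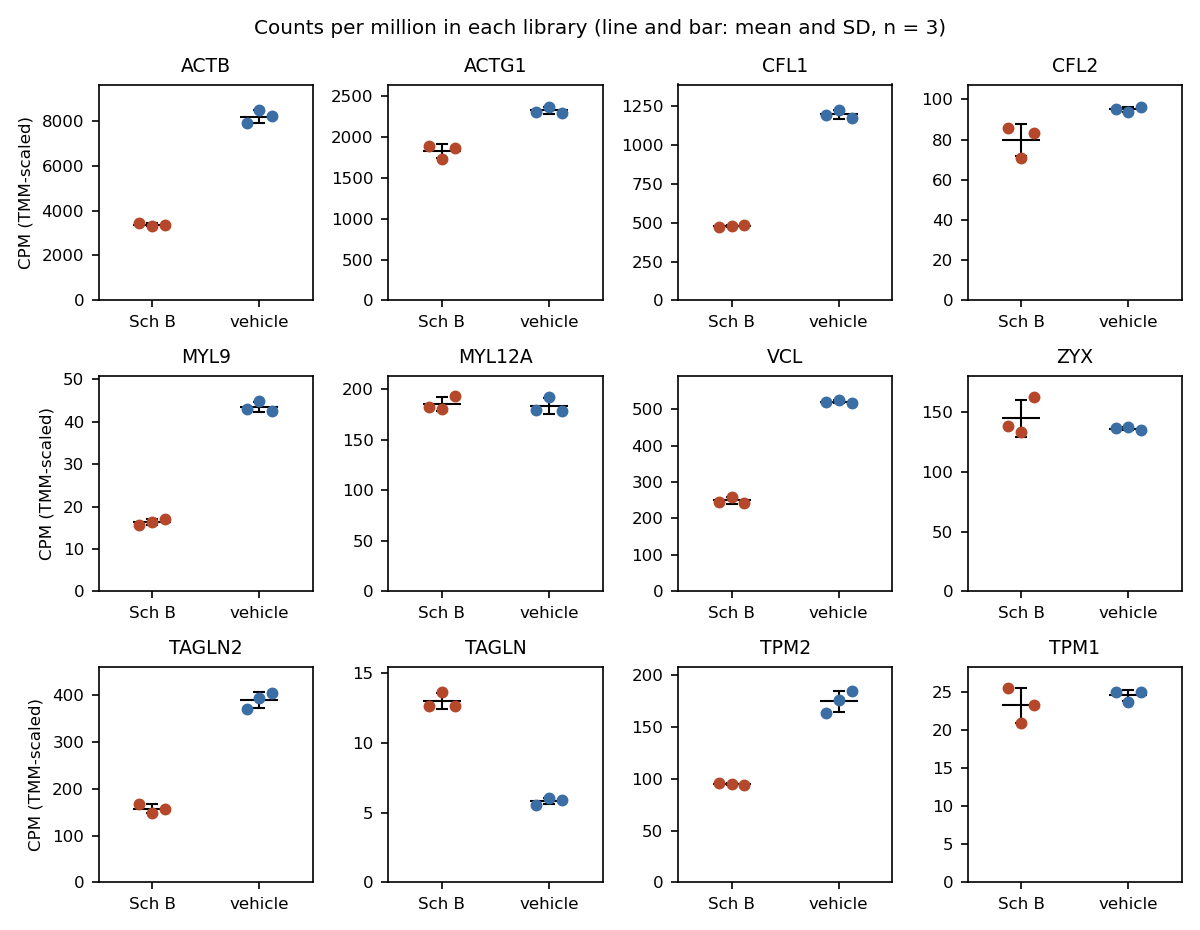
TMM-scaled CPM (y axes, from 0) of 12 members in each Schisandrin B (left) and vehicle (right) library, with the mean and SD of n = 3. ACTB, CFL1, MYL9, VCL, TAGLN2 and TPM2 stand lower in every Schisandrin B library, ACTG1 and CFL2 are lower by less, TAGLN is higher, and MYL12A, ZYX and TPM1 overlap between groups.

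All 8 subunits of the ARP2/3 complex, the branch-forming nucleator, fell; their median log2 change was -0.55 and the range -1.08 to -0.37. Summed over the subunits, the level was 1562, 1431 and 1458 CPM in Schisandrin B, against 2372, 2422 and 2445 CPM in vehicle, 1.63-fold lower. The core subunits ACTR2 and ACTR3, the actin-related proteins themselves, fell by 0.55 and 0.37 on the log2 scale. ARPC2, ARPC3, ARPC4 and ARPC5 fell by 0.54, 0.67, 0.51 and 0.51. The alternative subunits ARPC1A and ARPC1B fell most. ARPC1B had 344, 300 and 292 CPM in Schisandrin B, against 605, 633 and 617 CPM in vehicle (log2 change -0.99, SE 0.05, adjusted p = 1.1e-09 in edgeR's test). ARPC1A had 192, 142 and 151 CPM in Schisandrin B, against 343, 345 and 335 CPM in vehicle (log2 change -1.08, SE 0.12, adjusted p = 6.74e-04). Within Schisandrin B, replicate 1 was the high ARPC1A library.

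ARPC1A and ARPC1B are neighbours on chromosome 7, and a protein-coding entry without a symbol, ENSG00000284292, overlaps both. That entry had 0.0612, 67.9 and 69.3 CPM in Schisandrin B, against 2.74, 27.5 and 17.3 CPM in vehicle. It was lowest where ARPC1A was highest within Schisandrin B. Adding its counts to ARPC1A gave 192, 210 and 221 CPM in Schisandrin B, against 346, 372 and 353 CPM in vehicle, so the groups stayed apart. For all 3 entries together the sum was 536, 510 and 513 CPM in Schisandrin B and 951, 1006 and 970 CPM in vehicle. ARPC1B also overlaps PDAP1 on the opposite strand, which held 45% of ARPC1B's counts and was at a log2 change of -0.77. Of the other ARP2/3 subunits, from a separate list, ARPC5L fell 1.28-fold, ACTR3B was at a log2 change of -0.10 (adjusted p = 0.246 in edgeR's test), and ACTR3C was not tested.

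The 4 filament turnover genes fell, with CFL1 moving most. CFL1, the main non-muscle cofilin, which severs filaments (ENSG00000172757, chromosome 11, 65823022 to 65862026), had 473, 479 and 483 CPM in Schisandrin B, against 1191, 1225 and 1173 CPM in vehicle. The groups were far apart, with a log2 change of -1.32 (SE 0.04, adjusted p = 7.04e-15 in edgeR's test) and a 2.50-fold fall. Its muscle paralog CFL2 had 85.8, 71.0 and 83.1 CPM in Schisandrin B, against 95.3, 93.7 and 96.2 CPM in vehicle, a 1.19-fold fall. The related severing protein DSTN fell 1.63-fold and PFN1, the monomer carrier profilin, 1.75-fold. PFN1 was at 586 ± 5.64 CPM in Schisandrin B and 1028 ± 22.9 CPM in vehicle (SD, n = 3 each). The capping protein subunits CAPZA1 and CAPZB, which form a dimer, fell 1.40-fold and 1.80-fold.

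In a wider list of turnover and monomer-binding genes, all 17 of 18 that were tested fell, at a median log2 change of -0.45. Of all genes tested 35.2% fell, and of the abundant protein-coding genes 55.7% fell, with a median of -0.21. GSN, gelsolin, which severs and caps filaments in a calcium-dependent way, was at 152 ± 6.64 CPM in Schisandrin B and 417 ± 15.2 CPM in vehicle, a 2.74-fold fall. TMSB4X, thymosin beta-4, which sequesters actin monomers, was at 1854 ± 88.8 CPM in Schisandrin B and 4104 ± 103 CPM in vehicle (SD, n = 3 each). COTL1, a coactosin-like filament binder, fell 1.95-fold.

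Of the tropomyosins, TPM2, TPM3 and TPM4 fell and TPM1 did not pass the test. TPM2 had 96.3, 95.4 and 94.4 CPM in Schisandrin B, against 164, 176 and 185 CPM in vehicle, with no overlap (log2 change -0.88, SE 0.05, adjusted p = 5.91e-11 in edgeR's test). TPM3 fell 1.67-fold and TPM4 1.26-fold. TPM1 had 25.59, 20.98 and 23.34 CPM in Schisandrin B, against 25.07, 23.74 and 25.004 CPM in vehicle, and the groups overlapped. Its log2 fold change was -0.08, with an approximate 95% interval of -0.26 to 0.10 and an adjusted p of 0.463 in edgeR's test. The sign of TPM1 turned when scaling used protein-coding genes or the stricter filter on low counts. By FPKM, a level per transcript length, TPM1 made up 4.53 ± 0.159% of tropomyosin in Schisandrin B and 3.19 ± 0.171% in vehicle, and TPM2 26.5 ± 0.511% in Schisandrin B and 30.3 ± 0.96% in vehicle (SD, n = 3 each).

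Myosin II genes, which build the contractile motor, showed both the largest fall and one of the flattest responses among the members. The heavy chains MYH9 and MYH10 fell 1.82-fold and 2.22-fold. MYH9, the main non-muscle heavy chain, had 660, 611 and 631 CPM in Schisandrin B, against 1140, 1172 and 1155 CPM in vehicle, with no overlap (adjusted p = 3.05e-12 in edgeR's test). MYL6, the essential light chain, fell 2.31-fold. Among the regulatory light chains, MYL9, the form typical of smooth muscle (ENSG00000101335, chromosome 20, 36541497 to 36551447), had 15.5, 16.5 and 17.0 CPM in Schisandrin B, against 43.0, 44.8 and 42.6 CPM in vehicle. Its groups were well apart, at a log2 change of -1.41 (SE 0.08, adjusted p = 5.29e-11 in edgeR's test). MYL12B fell 1.18-fold. MYL12A, its neighbour on chromosome 18, had 183, 180 and 193 CPM in Schisandrin B, against 179, 192 and 179 CPM in vehicle. Those values overlapped, with a log2 change of 0.02, an approximate 95% interval of -0.07 to 0.11 and an adjusted p of 0.765 in edgeR's test. By FPKM, MYL6 made up 29.4 ± 0.85% of these 6 myosin transcripts in Schisandrin B and 47.4 ± 0.297% in vehicle, and MYL12A 31.8 ± 0.356% in Schisandrin B and 18.2 ± 0.404% in vehicle (SD, n = 3 each). The length implied by counts and FPKM was 1.20 times as long in Schisandrin B for MYL6, and these shares carry that difference. MYL12A and MYL12B are close paralogs, and reads may be shared between them.

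Of the 7 adhesion linkers and crosslinkers, 5 fell, 1 rose and 1 did not pass. VCL, vinculin, which links talin to actin (ENSG00000035403, chromosome 10, 73995193 to 74121363), had 245, 260 and 243 CPM in Schisandrin B, against 519, 524 and 516 CPM in vehicle. It fell 2.08-fold with no overlap (log2 change -1.06, SE 0.04, adjusted p = 2.9e-13 in edgeR's test). TLN1, talin, the integrin activator that binds vinculin, fell 1.17-fold, and FLNA, filamin A, an actin crosslinker, 1.36-fold. ZYX, zyxin, a sensor of tension at adhesions, had 138, 134 and 162 CPM in Schisandrin B, against 136, 138 and 135 CPM in vehicle. Only Schisandrin B replicate 3 stood above the vehicle range by a wide margin. Its log2 fold change was 0.09, with an approximate 95% interval of -0.04 to 0.21 and an adjusted p of 0.242 in edgeR's test. Without that library the log2 fold change was -0.01 (adjusted p = 0.904), and with scaling from protein-coding genes 0.17 (adjusted p = 0.0363).

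The actinins are filament crosslinkers, and both fell. ACTN1 had 261, 259 and 235 CPM in Schisandrin B, against 332, 370 and 341 CPM in vehicle, a 1.38-fold fall (adjusted p = 4.18e-07 in edgeR's test). ACTN4 had 68.5, 110 and 124 CPM in Schisandrin B, against 236, 247 and 222 CPM in vehicle, and replicate 1 was low within Schisandrin B. ACTN4 fell 2.34-fold (log2 change -1.23, SE 0.24, adjusted p = 0.0107). Without Schisandrin B replicate 1 the log2 fold change was -1.01 and the adjusted p 5.69e-09.

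FLNC, the filamin form typical of muscle, was scarce and rose. It had 72, 63 and 47 counts in Schisandrin B, against 11, 15 and 19 counts in vehicle, with no overlap. On the log2 scale the rise was 2.04 (SE 0.25, adjusted p = 1.11e-06 in edgeR's test). The ratio of summed count rates was 4.15, and its exact 95% binomial bounds were 2.98 and 5.89 (counting error only). Even so, by FPKM FLNC stayed at 0.388 ± 0.0584 in Schisandrin B and 0.0864 ± 0.0136 in vehicle, beside FLNA at 61.8 ± 2.18 in Schisandrin B and 77.3 ± 0.681 in vehicle (SD, n = 3 each).

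Transgelins and calponins bind along filaments and are used as markers of contractile cells. TAGLN2, a widely expressed form, had 168, 149 and 156 CPM in Schisandrin B, against 370, 392 and 403 CPM in vehicle (log2 change -1.30, SE 0.05, adjusted p = 3.11e-13 in edgeR's test). TAGLN, the smooth muscle form, went the other way, with 12.6, 13.7 and 12.7 CPM in Schisandrin B, against 5.56, 6.02 and 5.89 CPM in vehicle. All Schisandrin B libraries were above all vehicle libraries, at a log2 change of 1.15 (SE 0.12, adjusted p = 2.78e-07). TAGLN overlaps PCSK7 on the opposite strand, and no strand setting is stated for the counts, so reads of the pair cannot be told apart. The smooth muscle gene LMOD1 was at 5.87 ± 0.781 CPM in Schisandrin B and 0.864 ± 0.574 CPM in vehicle, while ACTA2 was lower, and their part in the TAGLN result was not tested. PCSK7 was at 51.7 CPM in Schisandrin B and 63.6 CPM in vehicle and fell by 0.30 on the log2 scale. An overlapping unnamed entry on TAGLN's own strand, ENSG00000280143, was at 4.49 CPM in Schisandrin B and 2.82 CPM in vehicle (adjusted p = 0.0827). CNN2 and CNN3, calponins outside muscle, fell 1.85-fold and 1.94-fold. CNN1, the smooth muscle calponin, had 1, 2 and 0 counts in Schisandrin B and 0 in each vehicle library, where a count of 0 allows up to 0.167 to 0.223 CPM.

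The regulators changed least, apart from one formin. SRF had 62.9, 55.6 and 60.5 CPM in Schisandrin B, against 68.1, 65.6 and 69.9 CPM in vehicle, a 1.14-fold fall (log2 change -0.19, SE 0.06, adjusted p = 0.00839 in edgeR's test). MRTFA had 23.0, 24.9 and 26.4 CPM in Schisandrin B, against 28.4, 31.0 and 26.7 CPM in vehicle, a log2 change of -0.21 (SE 0.09, adjusted p = 0.0411). The groups did not overlap for either gene, but MRTFA's highest Schisandrin B value lay just under its lowest vehicle value. MRTFA overlaps SGSM3 on the opposite strand, which held 172% of MRTFA's counts and rose by 0.19 on the log2 scale. MRTFA lost its call in each fit without Schisandrin B replicate 1 (adjusted p = 0.145), Schisandrin B replicate 2 (0.0773), vehicle replicate 1 (0.0535) or vehicle replicate 2 (0.16), and SRF did without Schisandrin B replicate 2 (0.0517). DIAPH1, a formin that elongates straight filaments, fell by 0.14 on the log2 scale. The calls of SRF, MRTFA and DIAPH1 were also lost with upper-quartile scaling, with TMM from protein-coding genes and with the filter of at least 5 CPM in 3 libraries. MRTFA and DIAPH1 lost theirs with library totals, and MRTFA in DESeq2 (adjusted p = 0.0999). DIAPH3, a related formin, had 28.7, 28.6 and 25.1 CPM in Schisandrin B, against 55.3, 54.3 and 56.8 CPM in vehicle, a 2.02-fold fall (adjusted p = 8.95e-10 in edgeR's test).

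**Figure D3:**
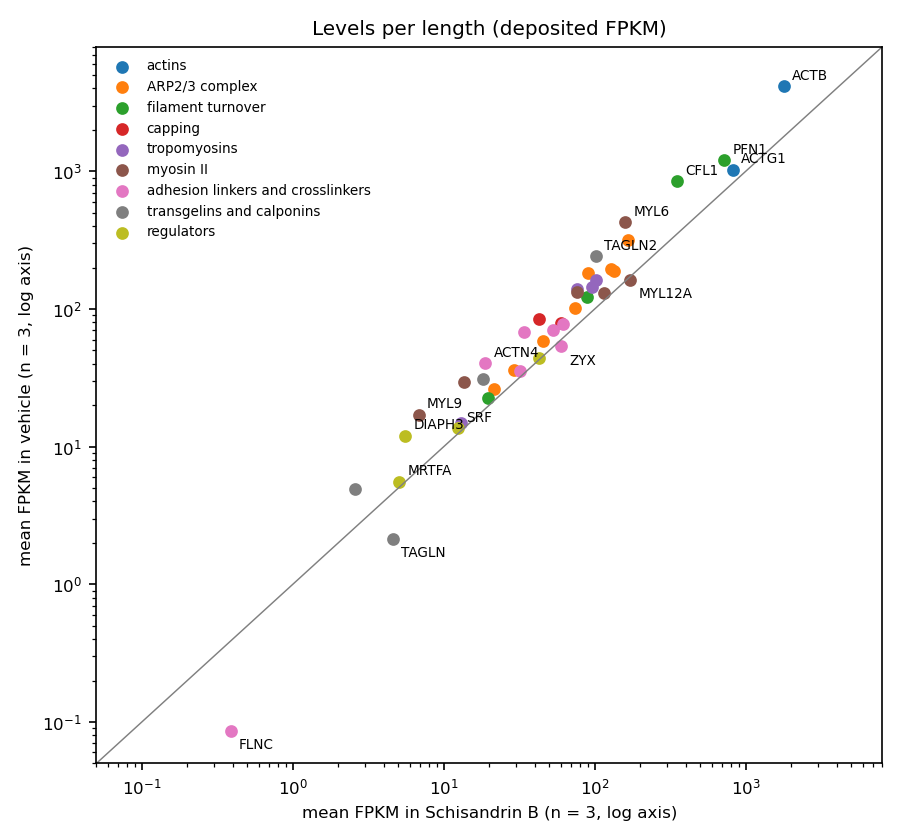
Mean deposited FPKM of the 41 tested members in Schisandrin B (x axis) and vehicle (y axis), both log axes, n = 3 each, coloured by role; the line marks equal levels. ACTB has the highest level in both groups, most points lie above the line (lower in Schisandrin B), and TAGLN, FLNC, MYL12A and ZYX lie below it.

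The order of FPKM levels within the members differed in part between groups. By mean FPKM, ACTB came first in both groups, at 1785 ± 202 in Schisandrin B and 4158 ± 340 in vehicle (SD, n = 3 each). ACTG1 and PFN1 stood 2nd and 3rd in Schisandrin B, at 824 ± 67.3 and 720 ± 26.7, and the other way round in vehicle, at 1028 ± 13.2 and 1209 ± 20.4. CFL1 was 4th in both groups, at 350 ± 21.7 in Schisandrin B and 844 ± 19.7 in vehicle. MYL12A was 5th in Schisandrin B and 11th in vehicle, and MYL6 7th in Schisandrin B and 5th in vehicle, while in Schisandrin B MYL12A at 172 ± 8.88, ARPC1B at 165 ± 12.8 and MYL6 at 159 ± 4.28 lay within about an SD of their neighbours. SRF and MRTFA were near the low end, at 12.4 ± 1.17 and 5.07 ± 0.245 in Schisandrin B and 13.7 ± 0.537 and 5.57 ± 0.321 in vehicle. FPKM is less steady than counts for some members. ARPC5, for example, was listed at 14.97, 16.02 and 33.69 FPKM in Schisandrin B, while its CPM were 88.4, 85.4 and 86.4. For MYL6, the transcript length implied by counts and FPKM was 0.985 ± 0.0773 kb in Schisandrin B and 0.823 ± 0.00756 kb in vehicle. Its change of rank carries that difference in length as well as its fall in counts.

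Ratios between related genes within a library do not depend on library scaling. Over 11 pairs, the groups did not overlap in 9. No share over other gene pairs was computed, and the 73.5% of single genes without overlap in CPM is a different measure. With 3 against 3 libraries an exact two-sided permutation test cannot go below p = 0.1, which these 9 reached (0.122 adjusted over the 11 pairs). ACTB over ACTG1 was 1.83, 1.91 and 1.81 in Schisandrin B, against 3.41, 3.57 and 3.57 in vehicle, so beta-actin lost ground to gamma-actin. CFL1 over CFL2 was 5.52, 6.75 and 5.82 in Schisandrin B, against 12.5, 13.1 and 12.2 in vehicle. DIAPH1 over DIAPH3 was 8.46, 9.16 and 9.48 in Schisandrin B, against 4.96, 4.98 and 4.81 in vehicle, the opposite direction. TAGLN over TAGLN2 was 5.50 times as high in Schisandrin B, and FLNA over FLNC 5.68 times as high in vehicle. Smaller shifts, of 1.22, 1.19 and 1.19 times, were seen in MYH9 over MYH10, MYL12A over MYL12B and TPM1 over TPM4, all higher in Schisandrin B. ACTN1 over ACTN4 rested in part on Schisandrin B replicate 1: the log2 difference was 0.80 with it and 0.52 without it. ARPC1A over ARPC1B (exact permutation p = 0.3) and TPM2 over TPM3 (p = 0.2) overlapped between groups.

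**Figure D4:**
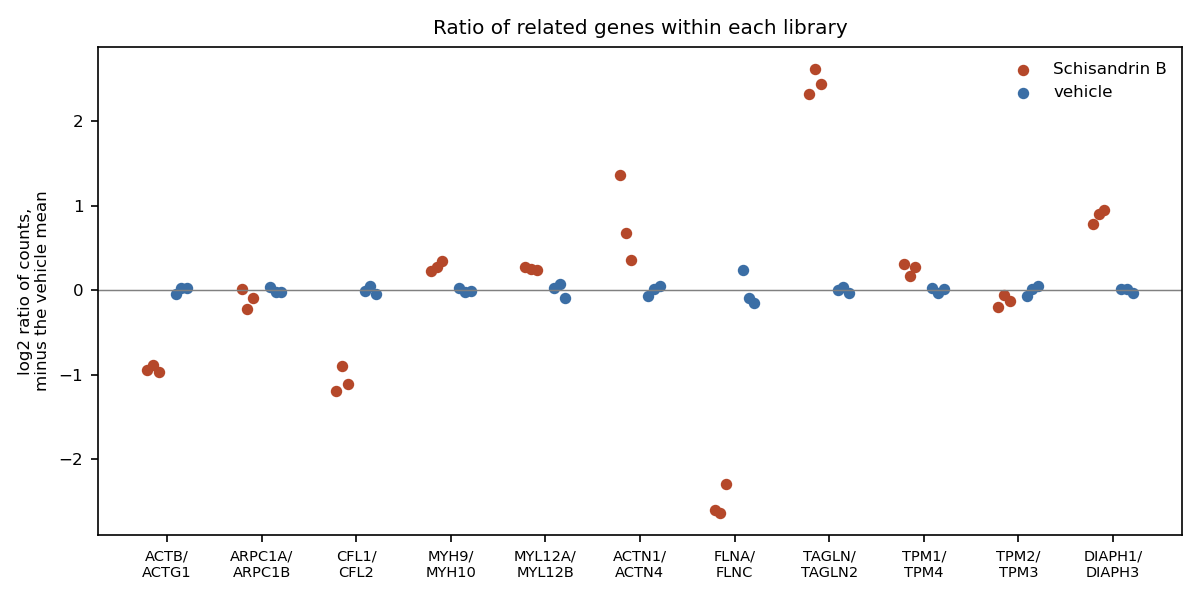
Log2 ratio of counts within each library for 11 pairs of related genes (x axis), with the vehicle mean of each pair set to 0 (y axis); each point is 1 of 3 Schisandrin B (left) or 3 vehicle (right) libraries. The groups separate for 9 pairs and overlap for ARPC1A/ARPC1B and TPM2/TPM3.

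Other targets of SRF moved in both directions. In a list of 23 SRF and MRTF targets outside the members, 16 were tested, of which 7 rose, 6 fell and 3 did not pass, and the median log2 change was -0.0007. These shares, 43.8% higher and 37.5% lower, were near the 35% and 35.2% of all genes tested, and their difference from the members was not tested. CCN2 and CCN1, matricellular proteins that are also targets of YAP, were at 24.3 ± 0.294 and 539 ± 54.0 CPM in Schisandrin B and 4.21 ± 0.706 and 152 ± 4.44 CPM in vehicle (SD, n = 3 each). The integrin subunit ITGA5 rose 1.57-fold. In the same list LIMA1, a filament-stabilising protein, fell 1.77-fold, MICAL2, an enzyme that oxidises actin, 1.87-fold, and the LIM protein FHL2 1.49-fold. ACTA2, smooth muscle actin and the most abundant of the smooth muscle markers, was at 8.91 ± 1.30 CPM in Schisandrin B and 14.4 ± 0.322 CPM in vehicle.

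Of 9 tested immediate early targets of SRF with TCF, 7 rose and 1 fell (77.8% and 11.1%, against 35% and 35.2% of all genes tested), with a median of 0.71. IER2 and MCL1, a survival factor of the BCL2 family, rose 1.63-fold and 1.30-fold, FOSB rose 4.41-fold, and EGR3 fell 1.68-fold. EGR1, whose promoter is shown above, was at a log2 change of 1.92 (280 ± 17.96 CPM in Schisandrin B and 74.4 ± 13.8 CPM in vehicle, adjusted p = 2.19e-04 in edgeR's test). The 6 members with a CArG box in the window all fell, where 87.8% of all tested members fell. Their median was -0.40 and their range -0.89 to -0.19. The 31 matched and tested members without one had a median of -0.67 and a range of -1.32 to 2.04. The unmatched ACTB, ARPC1B, MYL9 and TAGLN, at -1.28, -0.99, -1.41 and 1.15, are in neither set. A link between the box and the change was not tested. Among SRF cofactors, the TCF genes ELK1 and ELK3 fell 1.37-fold and 1.49-fold, MRTFB fell by 0.58 on the log2 scale and ELK4 rose 1.47-fold, while MYOCD and ABRA had no counts.

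**Figure D5:**
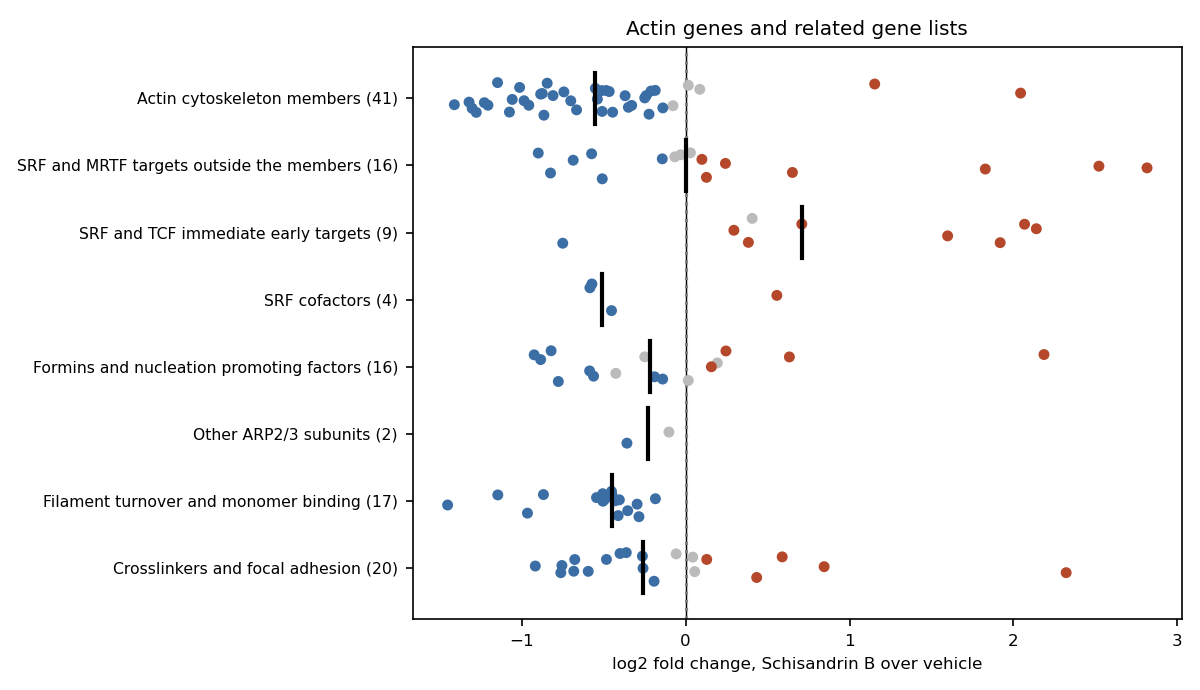
Log2 fold change (x axis, Schisandrin B over vehicle) of each tested gene in the members and in 7 related lists (y axis, number tested in brackets); red points rose, blue points fell, grey points did not pass, and black bars are medians. The members' median is -0.55, that of the SRF and MRTF targets outside the members -0.0007 and that of the immediate early targets 0.71.

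Of 16 formins and nucleation promoting factors, 8 fell and 4 rose (50% and 25%), with a median of -0.22. Of all genes tested, 35.2% fell and 35% rose, and of the abundant protein-coding genes 55.7% fell. BRK1 and WASF2, parts of the WAVE complex that activates ARP2/3, fell 1.90-fold and 1.48-fold, and the formin INF2 fell by 0.59 on the log2 scale. The formin FMNL2 rose 1.55-fold, WASF3 4.55-fold and NCKAP1, also of the WAVE complex, 1.11-fold. Of 20 other crosslinkers and focal adhesion genes, 12 fell and 5 rose (60% and 25%), with a median of -0.26, close to the 55.7% and the median of -0.21 of the abundant protein-coding genes. LASP1, TRIP6 and PLS3 fell 1.89-fold, 1.70-fold and 1.69-fold. SPTBN1, a spectrin, and PXN, the adhesion scaffold paxillin, rose by 0.59 and 0.43 on the log2 scale.

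Several members overlap other genes in position, and without a known strand setting their reads could mix. In all, 33 of the 42 overlap another entry, and for 11 a partner held at least 5% of the member's counts. MYH10 fell while its partner NDEL1 rose by 1.03 on the log2 scale, and CFL1 fell while MUS81 rose by 0.88. CAPZB and its partner MICOS10 both fell, by 0.85 and 1.19. TADA3 held 83.3% of ARPC4's counts, at a log2 change of -0.05 (adjusted p = 0.388 in edgeR's test). SMARCC2 held 37.3% of MYL6's counts, at a log2 change of -0.43. In the authors' deposited table, whose test is unstated, 35 members were lower and 2 higher at an adjusted p under 0.05. TPM1, MYL12A, ZYX and MRTFA were neither (4 members), and MRTFA was at an adjusted p of 0.0674 in that unstated test. The 1 member without an adjusted p was CNN1.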

How the data were processed

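The authors deposited whole-number read counts for each Ensembl gene. The deposited FPKM, per the file headers, are scaled for length and depth, and were used for levels between genes, for ratios as an alternative and for implied lengths. The deposited fold (a ratio, Schisandrin B to vehicle) and log2 values and the deposited p-values come from the authors' own comparison. The submitters' processing notes name GRCh38 and mm10. The sources used here name no aligner, counter or strand setting. All 42 members overlap their GENCODE release 29 (GRCh38) entries.

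The tests ran in edgeR 4.0.16 (R 4.3.3): filterByExpr, TMM scaling, quasi-likelihood F-tests (robust dispersion) and Benjamini-Hochberg adjustment over all genes tested. SE is the log2 fold change divided by the square root of F, and approximate intervals are normal ones from that SE. Alternatives used limma 3.58.1 and DESeq2 1.42.0, and figures matplotlib 3.10.9. Floors are 3 counts per library. Floors and counting intervals cover counting error only, since reads are not independent molecules. Each list names at most 3 genes per direction, those with the smallest adjusted p, and markers with the highest counts, beside genes named as untested or chosen after their values were seen. The members and lists were chosen with earlier results of these data known. 1 of the gene lists and 1 gene of another are not reported here.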

Additional observations from a re-analysis of the deposited data

How the results depend on the processing

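The 36 members that fell and the 2 that rose were 33 to 36 and 2 to 3 over the other settings: RLE, upper-quartile and library-total scaling, TMM from protein-coding genes, no low-count filter, at least 5 CPM in 3 libraries, DESeq2, limma voom, a threshold of 0.01, the replicate number as a block, and each library left out. All medians over genes tested moved by under 0.1 on the log2 scale. Of the single-gene log2 fold changes under these settings, 587 kept direction and call, 18 lost the call, 2 gained it (ZYX) and 7 turned sign, all in genes past no threshold. TPM1 (-0.08) became 0.0065 with TMM from protein-coding genes and 0.0041 with at least 5 CPM in 3 libraries. MYL12A (0.02) became -0.0380 with no filter, and ran from -0.0177 to 0.0429 with a library left out, below 0 without Schisandrin B replicate 3, vehicle replicate 1 or vehicle replicate 3. ZYX (0.09) ran from -0.0075 (without Schisandrin B replicate 3) to 0.146 with a library left out. FLNC was not tested at the filter of at least 5 CPM in 3 libraries, since its highest value was 4.41 CPM. The 2 members that rose at that filter were therefore TAGLN and ZYX. With the replicate block 35 members fell and 2 rose, and ACTN4 missed the threshold (log2 fold change -1.26 against -1.23 without the block, adjusted p = 0.0502). Deviations of same-numbered libraries correlated at 0.0358, -0.0499 and 0.000614, and 1 of 6 libraries correlated best with its own number, so the numbers were not taken as pairs. With FPKM, the block or a library left out, no difference in ratio turned sign in the 11 pairs.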

Other observations

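The transcript length implied by the deposited files, which is CPM from the library total divided by FPKM, differed between groups for some members, a measure chosen after seeing the data. MYL6 was at 0.985 ± 0.0773 kb in Schisandrin B and 0.823 ± 0.00756 kb in vehicle (SD, n = 3 each). TPM4 was at 3.75 ± 0.156 kb in Schisandrin B and 3.04 ± 0.0683 kb in vehicle. CAPZB was at 3.29 ± 0.26 kb in Schisandrin B and 2.89 ± 0.0355 kb in vehicle, and TPM1 at 1.81 ± 0.0395 kb in Schisandrin B and 1.64 ± 0.0214 kb in vehicle. Over the 41 members with a value in every library, the groups did not overlap in 9, of which 4 were longer and 5 shorter in Schisandrin B, and the median ratio was 0.991. That is 22% of the members, near the 20.5% of the 15643 tested genes with such values. The 5 shorter ones were ACTR3, ARPC4, ACTN4, FLNA and FLNC, with ratios of 0.939 to 0.972. An exact two-sided permutation test gave these 9 p = 0.1, the smallest possible, and the adjusted p over the 41 was 0.456. The sources used here do not say how lengths were set for FPKM, and isoform use was not tested. The FPKM levels of these genes carry that difference: TPM4 was at 95.5 ± 5.40 FPKM in Schisandrin B and 144 ± 4.12 in vehicle, a wider gap than its 1.26-fold fall by counts.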
